A study of Mus musculus with 10 samples.

Results

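Mitochondrial reads took between 3.22% and 6.09% of the counts in 10 RNA sequencing libraries of mouse splenic macrophages, and the libraries were divided at a share of 5%. The high set held 5 of the 10 libraries (WT 1, WT 2, WT 3, WT 5 and Fpr2KO 2) and the low set the other 5 (WT 4, Fpr2KO 1, Fpr2KO 3, Fpr2KO 4 and Fpr2KO 5). The members were chosen by this measured share, at a time when earlier results of these data were already known. The choice was therefore not independent of the expression values compared below. All cells came from spleen and were captured on magnetic beads through F4/80, found on the surface of mature macrophages. The WT libraries are labelled C57BL/6N, and the Fpr2KO libraries lack Fpr2, a formyl peptide receptor of myeloid cells. The labels give no treatment, age or sex, no strain background for the knockout, and do not say whether replicates came from separate animals. P-values therefore rest on the spread among these libraries, part or all of which may be technical.

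The sets were made from the libraries' own counts and are not groups of the study. They held 4 WT and 1 Fpr2KO library against 1 WT and 4 Fpr2KO libraries, so that the split ran close to genotype, and WT 4 and Fpr2KO 2 alone separated the pair. Totals ran from 15865820 to 19060188 counts per library. Fpr2 stood between 20.2 and 35.7 CPM (read counts relative to the library's total of nuclear counts, scaled between libraries) in the WT libraries and had no read in any Fpr2KO library, Fpr2KO 2 included. The macrophage markers Adgre1, which encodes F4/80 (439 to 640 CPM), and Spic, a transcription factor of red pulp macrophages (233 to 427 CPM), were present in every library.

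Mitochondria keep a small genome of their own. It encodes 13 proteins of the respiratory chain and ATP synthase together with the rRNAs and tRNAs needed to translate them. All other parts of these complexes, of the mitochondrial ribosome and of the import machinery are encoded in the nucleus, translated on cytosolic ribosomes and carried into the organelle. The share of mitochondrial reads in a library therefore counts one genome's transcripts against the other's.

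The mitochondrial share was 6.09% in WT 1, 6.04% in Fpr2KO 2, 5.74% in WT 2, 5.60% in WT 3 and 5.28% in WT 5, and 4.83% in WT 4, 3.99% in Fpr2KO 1, 3.85% in Fpr2KO 3, 3.57% in Fpr2KO 4 and 3.22% in Fpr2KO 5. The mean was 5.75% ± 0.334 (SD, n = 5) in the high set and 3.89% ± 0.599 (SD, n = 5) in the low set. WT 5 was the library just above the threshold and WT 4 the one just below it, and they lay closer to each other than WT 4 lay to Fpr2KO 1. Since these values chose the sets, they are a description and no test was made of them.

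**Figure D1:**
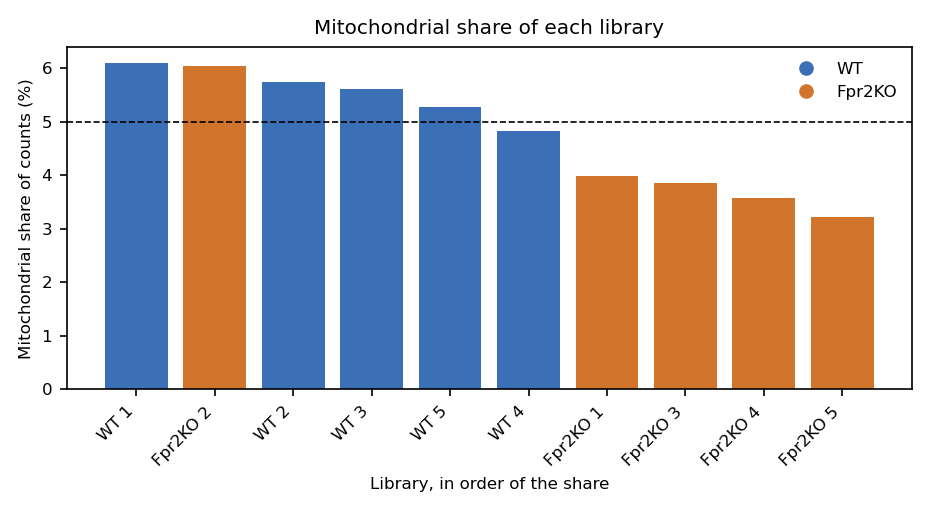
Percent of all counts in mitochondrial genes (vertical axis) for each of the 10 libraries in order of that share, with WT in blue, Fpr2KO in orange and the 5% threshold as a dashed line. Fpr2KO 2 (6.04%) stands among the WT libraries, and WT 4 (4.83%) is the first library under the line.

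Of the 37 mitochondrial genes, 25 had reads. mt-Co1, the catalytic subunit of cytochrome c oxidase, held 49.8% of the mitochondrial counts in the high set and 49.1% in the low set. Its CPM, here relative to all counts of the library, was 30407 in WT 1, 28372 in WT 2, 29045 in WT 3, 26402 in WT 5 and 28868 in Fpr2KO 2, against 23885 in WT 4, 20569 in Fpr2KO 1, 18803 in Fpr2KO 3, 16783 in Fpr2KO 4 and 15654 in Fpr2KO 5. The other abundant messages shifted by like ratios of the set means: 1.60 for mt-Nd2 and 1.40 for mt-Nd1, both complex I subunits, and 1.51 for mt-Cytb, the cytochrome b of complex III. The ribosomal RNAs mt-Rnr1 and mt-Rnr2 had ratios of 1.21 and 1.19, and mt-Nd6, the complex I subunit transcribed from the opposite strand, had 0.949.

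Some mitochondrial messages had few reads and also share their sequence with annotated nuclear genes. The stretch below, from positions 71 to 130 of each transcript in the GENCODE M21 set on GRCm38, shows mt-Co2, subunit 2 of cytochrome c oxidase (positions 7013 to 7696 of the mitochondrial genome, plus strand), beside Gm28661, an annotated pseudogene at chr1:24614885-24615565 on the minus strand. No base is in capitals, since none of the 681 aligned bases differed between them.
mt-Co2: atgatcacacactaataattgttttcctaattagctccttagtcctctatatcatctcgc
Gm28661: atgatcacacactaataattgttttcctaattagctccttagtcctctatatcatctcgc
mt-Co2 had 7562 reads over the 10 libraries and Gm28661 6728, against 4139534 for mt-Co1. Every 31-base sequence of mt-Co2 occurred in another annotated gene, as did 99.5% of those of mt-Atp6 and 99.9% of those of mt-Co3, but none of mt-Nd1. mt-Co2 made up 0.0805% of the mitochondrial counts in the high set and 0.106% in the low set. Over annotated genes, shared sequence and read number did not run in parallel for all messages: mt-Co1 had 63.9% of its 31-base sequences in other genes and mt-Nd4 62.8%, and mt-Atp8 had 7.47% with 517 reads. The search covered annotated transcripts only, so copies in other sequence would be missed. For mt-Atp8 this matters, since it lies next to mt-Co2 and mt-Atp6. Their copies Gm28661 and Gm10925 (chr1:24613974-24614651) are neighbours, and the sequence between them may also match. No source used here says how reads that match several places were counted, and its part in these numbers was not tested.

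Outside the mitochondrial genes, 1395 of 14653 genes passed an FDR of 0.05 between the sets (9.52%; edgeR's quasi-likelihood test, Benjamini-Hochberg adjustment over all genes tested). Of these, 577 were higher in the high set (3.94% of genes tested) and 818 were lower (5.58%). The changes were small: 19 of the genes higher in the high set and 123 of the lower ones passed 2-fold. Annotated nuclear copies of mitochondrial sequence stayed among the genes tested, and 1 of the higher genes, Gm28438 (log2 fold change 0.76), is such a copy. Gm10925, which shares sequence with mt-Atp6, had 886 to 1187 reads in the high libraries and 418 to 802 in the low ones. Gm13340, which shares sequence with mt-Co1, had its most reads in Fpr2KO 1 (1818), a low library. All 5 high libraries lay above all 5 low ones for 512 genes (3.49%) and below them for 702 (4.79%). A comparison of the same libraries by genotype gave 10 genes past the threshold (0.0682%), and all WT libraries lay above or below all Fpr2KO libraries for 86 (0.587%) and 119 (0.812%) genes.

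The number of calls rested on single libraries. It was 0 without WT 2 (smallest FDR 0.062), 2 without WT 1, 111 without Fpr2KO 4, 380 without Fpr2KO 1, 579 without WT 4, 730 without Fpr2KO 2, 776 without Fpr2KO 5 and 2452 without WT 3. It was also 0 with the boundary at 4.5%, which moved WT 4 to the high set. With genotype in the model, where the split rests on WT 4 and Fpr2KO 2, no gene passed (smallest FDR 0.0721; 22.4% of genes at an unadjusted p under 0.05, 1492 genes, 10.2%, higher and 1785, 12.2%, lower). DESeq2 gave 994 genes in that model, and edgeR gave 1085 without WT 3.

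Of the nuclear genes of the respiratory chain, those that passed the test were lower in the libraries with more mitochondrial reads. Complex I, the entry point of electrons from NADH, had 13 of its 36 nuclear genes called lower and none called higher, against 5.58% called lower over all genes. All 36 estimates were below zero, with a median log2 fold change of -0.25 and a range from -1.03 to -0.01, where the median over all genes tested was 0.00. Complexes II to V had 11 of 38 called lower (median -0.21). Ndufb3, an accessory subunit of the membrane arm of complex I (chr1:58586384-58595964, plus strand), had the largest change of the complex I list. It stood at 11.8 CPM in WT 1, 10.8 in WT 2, 17.0 in WT 3, 13.5 in WT 5 and 10.6 in Fpr2KO 2, against 25.4 in WT 4, 28.7 in Fpr2KO 1, 22.0 in Fpr2KO 3, 29.7 in Fpr2KO 4 and 24.5 in Fpr2KO 5. Every high library was below every low one, and WT 3 was the closest to the low set. The log2 fold change of Ndufb3 was -1.03 ± 0.13 (SE; adjusted p = 0.014 in edgeR).

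The same order held for other small subunits. Cox8a, a subunit of cytochrome c oxidase (chr19:7215153-7217616, minus strand), had 55.7, 55.1, 68.4, 55.3 and 43.5 CPM in WT 1, WT 2, WT 3, WT 5 and Fpr2KO 2, and 90.2, 94.3, 74.9, 92.6 and 83.3 CPM in WT 4 and Fpr2KO 1, 3, 4 and 5. The sets did not overlap, and the log2 fold change of Cox8a was -0.65 ± 0.10 (SE; adjusted p = 0.0175 in edgeR). Further subunits called lower were Ndufs6 (-0.79), Ndufa13 (-0.80) and Ndufa2 (-0.72) of complex I, Uqcr11 of complex III (-1.02), Cox5b of complex IV (-0.44) and Atp5g1, part of the ATP synthase ring (-0.42).

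**Figure D2:**
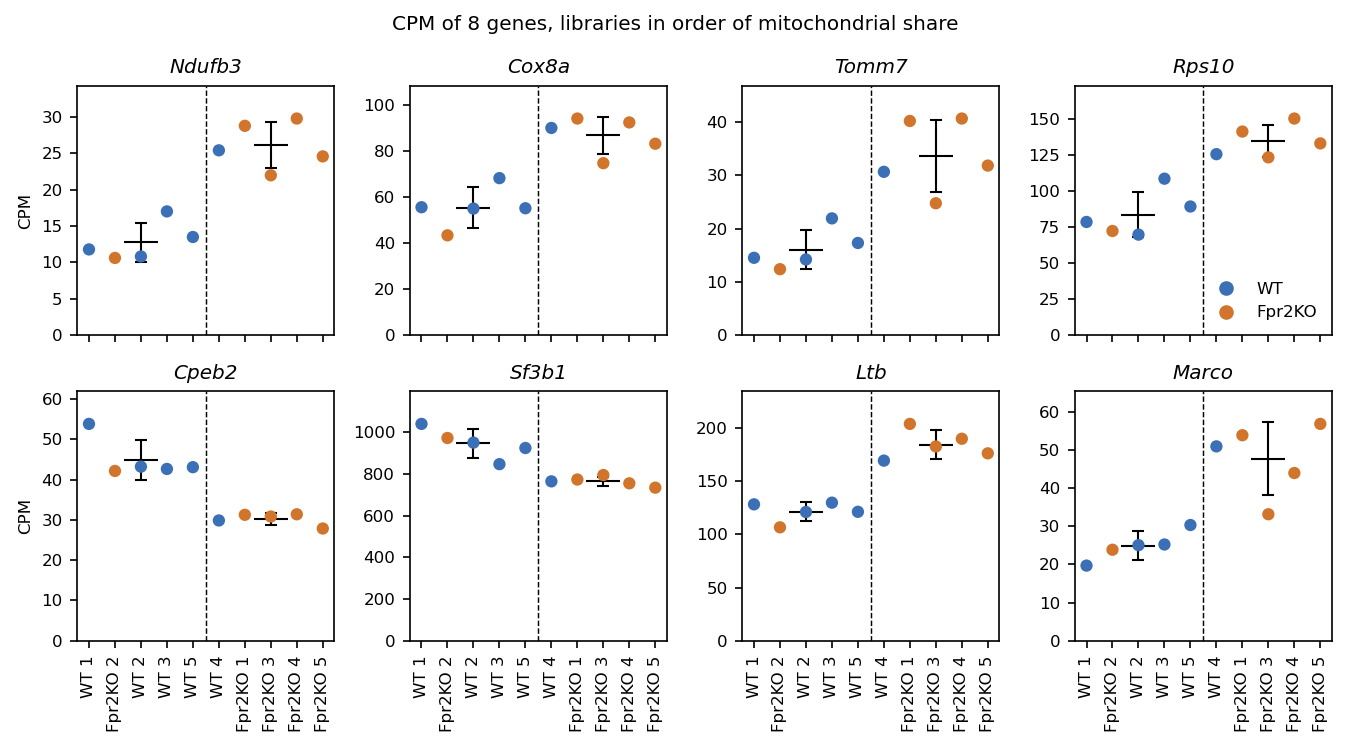
CPM (vertical axes, from 0) of 8 genes in each library, ordered by mitochondrial share, with WT in blue and Fpr2KO in orange; the dashed line divides the high set (left) from the low set, and black marks give the mean and SD of each set (n = 5). In all 8 panels the sets do not overlap, Fpr2KO 2 lies with the high WT libraries and WT 4 with the low Fpr2KO libraries. The 8 genes were drawn from those named for small p-values in these libraries, so this separation follows in part from the choice. Over all genes tested, all high libraries lay above all low ones for 3.49% and below them for 4.79%.

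Among genes of the mitochondrial ribosome and of protein import, calls were also in the lower direction, where 5.58% of all genes tested were called lower. Of 52 mitochondrial ribosomal proteins, 16 were called lower and none higher (median -0.21, 41 estimates below zero and 11 above), led by Mrpl27 (-0.60), Mrps16 (-0.58), Mrps21 (-0.56) and Mrpl28 (-0.50). Of 27 import and chaperone genes, 6 were called lower and none higher (median -0.23, 21 estimates below zero and 6 above). Tomm7, which regulates the translocase of the outer membrane, had 14.5, 14.2, 21.9, 17.3 and 12.4 CPM in WT 1, WT 2, WT 3, WT 5 and Fpr2KO 2, and 30.6, 40.2, 24.8, 40.6 and 31.8 CPM in WT 4 and Fpr2KO 1, 3, 4 and 5. The sets of Tomm7 values did not overlap (log2 fold change -1.06 ± 0.17 SE; adjusted p = 0.0194 in edgeR). Timm13, a chaperone of the intermembrane space (-0.74), and Timm22, the channel for carrier proteins (-0.48), were also lower.

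The list for mitochondrial transcription and RNA processing, which acts on the organelle's own genome, had 1 of 31 genes called, with a median of 0.00 and 16 estimates above zero. The called gene was Slirp, which with its partner LRPPRC stabilises mitochondrial messages; its log2 fold change was -0.55 ± 0.10 (SE; adjusted p = 0.0194 in edgeR), and 94.1% of its 31-base sequences occur in other genes, so that its count is uncertain. Tfb2m, a mitochondrial transcription initiation factor, had a log2 fold change of 0.29 and an adjusted p of 0.0504 in edgeR, short of the threshold. Among 12 regulators of mitochondrial biogenesis 1 was called, the nuclear receptor Esrra (-0.41). The estimates of 10 of these regulators were above zero, with a median of 0.09. The citrate cycle had no gene called of 16, fatty acid oxidation 1 of 16 (Etfb, an electron carrier subunit, -0.41), and glycolysis none of 16. Of 18 genes of mitophagy and mitochondrial dynamics, Fis1 (-0.38), Pink1 (-0.40) and Phb2 (-0.27) were called lower. Over all genes tested, 9.52% were called and 5.58% were called lower.

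Cytosolic ribosomal proteins had 31 of 79 called lower and none higher (median -0.21). Rps10 had 78.7, 69.9, 109, 89.4 and 72.4 CPM in WT 1, WT 2, WT 3, WT 5 and Fpr2KO 2, and 126, 141, 124, 150 and 133 CPM in WT 4 and Fpr2KO 1, 3, 4 and 5. All high values of Rps10 were below all low ones (log2 fold change -0.69 ± 0.11 SE; adjusted p = 0.0175 in edgeR). Rpl13a (-0.60), Rpl36 (-0.63) and the stalk protein Rplp2 (-0.51) were called too, but ribosomal protein genes have many processed copies, and 94.0% of the 31-base sequences of Rpl36 occur in other genes. Of 31 proteasome genes 4 were called lower (5.58% over all genes tested), among them the catalytic subunits Psmb6 (-0.39) and Psmb5 (-0.48). Sequence shared with other genes also took 71.7% of the 31-base sequences of Psmb5, 49.9% of Etfb, 38.9% of Mrpl27 and 33.2% of Ndufa13.

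These list counts varied with single libraries far more than the medians did. Without WT 1, or without WT 2, no gene of complex I, complexes II to V, the mitochondrial ribosome, import or the cytosolic ribosome was called. Without Fpr2KO 4 the genes called lower in these lists numbered 3, 1, 2, 1 and 5, without Fpr2KO 1 they numbered 5, 4, 6, 3 and 15, and without WT 4 they numbered 6, 4, 8, 3 and 20. Over all genes tested in the same fits, 0.522%, 1.67% and 2.58% were called lower. Without Fpr2KO 2 they were 7, 4, 10, 4 and 21, without WT 5 they were 11, 6, 10, 6 and 27, and without WT 3 they were 17, 20, 19, 9 and 33, beside 2.59%, 4.76% and 9.03% of all genes. The median log2 fold change of complex I nevertheless stayed between -0.28 and -0.22 with any 1 library left out, that of the mitochondrial ribosome between -0.23 and -0.17, and that of the cytosolic ribosome between -0.26 and -0.17.

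Within each genotype, the library on the other side of the threshold could be set against its 4 fellows. WT 4 was the highest of the 5 WT libraries for 30 of 36 complex I genes, 33 of 38 genes of complexes II to V and 66 of 79 cytosolic ribosomal protein genes, where it was the highest for 23.8% of all genes tested. Fpr2KO 2 was the lowest of the 5 Fpr2KO libraries for 23 of 36 complex I genes, 27 of 38 genes of complexes II to V and 43 of 79 cytosolic ribosomal protein genes, against 30.8% of all genes tested. With genotype in the model, the median log2 fold change of the split was -0.26 for complex I, -0.24 for complexes II to V, -0.20 for the mitochondrial ribosome and -0.23 for the cytosolic ribosome, and in that model the genotype medians were -0.05, -0.04, 0.00 and -0.04. Ndufb3 had a split estimate of -1.11 (unadjusted p = 1.8e-05, adjusted p = 0.0721 in edgeR) and a genotype estimate of -0.13 in that model. Since each side of this contrast is 1 library per genotype, these values describe WT 4 and Fpr2KO 2.

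**Figure D3:**
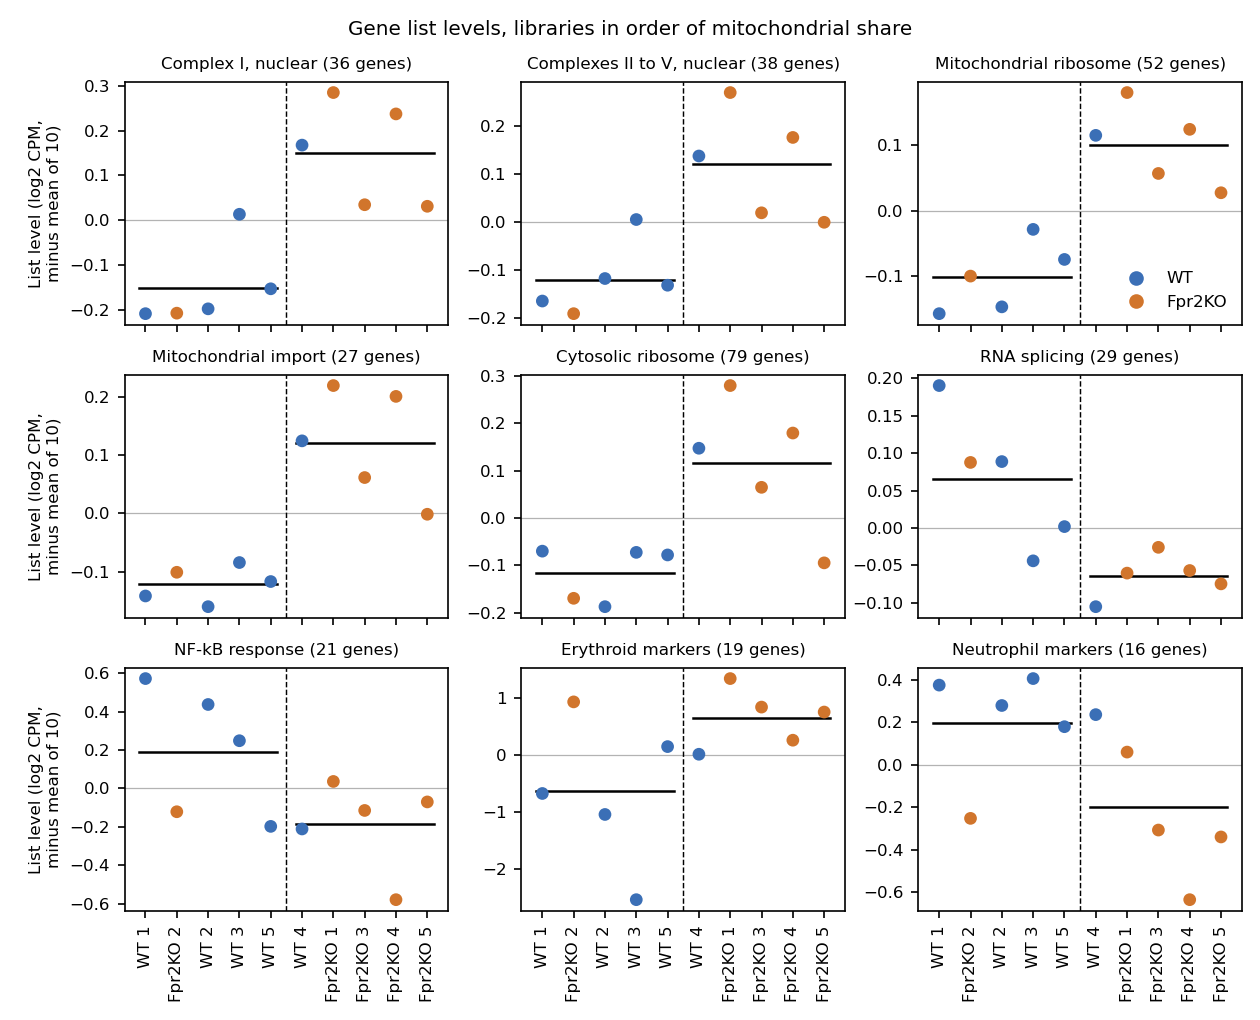
Level of 9 gene lists in each library (mean log2 CPM of the list's genes, minus the mean of the 10 libraries), ordered by mitochondrial share; WT is blue, Fpr2KO is orange, the dashed line divides the sets and black lines are set means. Complex I, the mitochondrial ribosome and import separate the sets without overlap, whereas the erythroid and neutrophil markers separate the genotypes.

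Of 41 gene lists, 3 had levels that put all high libraries below all low ones: complex I, the mitochondrial ribosome and mitochondrial import. The same order held for 4.79% of the single genes tested. By genotype, 3 lists put all WT libraries above all Fpr2KO libraries and 1 list put them below. WT 3, high in mitochondrial share, was the high library nearest to the low set in complex I, at 0.01 on the log2 scale where the low set began at 0.03.

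Genes of several functions were higher in the high set. Cpeb2, which binds 3′ ends of messages and regulates their translation (chr5:43233170-43289724, plus strand), had 53.8, 43.2, 42.7, 43.1 and 42.2 CPM in WT 1, WT 2, WT 3, WT 5 and Fpr2KO 2, and 29.9, 31.3, 30.8, 31.4 and 27.9 CPM in WT 4 and Fpr2KO 1, 3, 4 and 5. The sets were well apart, with a log2 fold change of 0.57 ± 0.08 (SE; adjusted p = 0.0156 in edgeR). Ints6l, related to a subunit of the Integrator complex, rose by 0.43 on the log2 scale, Resf1, a nuclear factor that acts in retroelement silencing, by 0.47, and the membrane protein gene Serinc1 by 0.35. RNA splicing genes had 5 of 29 called higher and 1 lower (median 0.15), against 3.94% called higher over all genes. Sf3b1, a core protein of the U2 particle, stood at 1040, 951, 847, 925 and 973 CPM in WT 1, WT 2, WT 3, WT 5 and Fpr2KO 2, and at 765, 773, 795, 755 and 734 CPM in WT 4 and Fpr2KO 1, 3, 4 and 5. Its sets did not overlap (log2 fold change 0.31 ± 0.07 SE; adjusted p = 0.0239 in edgeR), Rbm39 (0.31) and Son (0.24), both splicing factors, were higher too, and U2af2, which recognises the polypyrimidine tract, was lower (-0.26).

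Genes of the inflammatory NF-kB response had the largest median shift among the non-marker lists, 0.52, with 4 of 21 called, against 9.52% of all genes tested. The level of this list overlapped between the sets (-0.20 to 0.57 in the high and -0.58 to 0.04 in the low set). Only WT 1, WT 2 and WT 3 lay above every low library, and WT 5 (-0.20) and Fpr2KO 2 (-0.12) lay within the low range. The median was 0.33 without WT 1, and with genotype in the model the split median was 0.36 and the genotype median -0.19. Tnfaip3, which encodes the feedback inhibitor A20, was called higher (0.75 ± 0.20 SE; adjusted p = 0.0417 in edgeR) with 1401, 1218, 1144, 690 and 813 CPM in WT 1, WT 2, WT 3, WT 5 and Fpr2KO 2, and 576, 776, 691, 485 and 605 CPM in WT 4 and Fpr2KO 1, 3, 4 and 5. WT 1, WT 2 and WT 3 were the highest, Fpr2KO 2 lay just above the low set, and WT 5 lay within it. Nfkbiz (0.57) and the chemokine gene Ccl3 (0.53) were called higher, and Nfkb2, the precursor of p52, was called lower (-0.32). The immediate early genes had none of 23 called; Fos had a log2 fold change of 0.37 and an adjusted p of 0.0663 in edgeR. The apoptosis and p53 list had 3 of 20 called higher and 2 called lower, against 3.94% and 5.58% of all genes tested. In this list Mdm2 (0.30) and Apaf1 (0.26) were higher, and the pore-forming Bax (-0.43) and Bak1 (-0.32) were lower.

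Among macrophage and antigen presentation genes, 1 of 5 markers of marginal zone macrophages, 2 of 22 markers of red pulp macrophages and 2 of 10 MHC class II genes were called, against 9.52% of all genes tested. Marco, a scavenger receptor of marginal zone macrophages, had 19.7, 25.0, 25.2, 30.3 and 23.8 CPM in WT 1, WT 2, WT 3, WT 5 and Fpr2KO 2, and 50.9, 53.8, 33.1, 43.9 and 56.8 CPM in WT 4 and Fpr2KO 1, 3, 4 and 5. The sets did not overlap (log2 fold change -0.94 ± 0.14 SE; adjusted p = 0.0175 in edgeR). In the same list Siglec1 had 0.56 with an adjusted p of 0.0834 in edgeR. Red pulp macrophage markers had a median of 0.02, with the complement gene C1qc called lower (-0.42) and the complement receptor gene Vsig4 called higher (1.01). The sets overlapped for both genes, and Vsig4 had few reads, with 11.0 CPM in WT 3 and at most 5.76 CPM in the other high libraries. MHC class II genes had estimates below zero in 10 of 10 and 2 called, H2-Ab1 (-0.43) and H2-Eb1 (-0.28). The cytokine gene Ltb fell by 0.60 on the log2 scale and the antiviral transcription factor gene Irf3 by 0.50, each without overlap between the sets. Lysosomal Lamp2 (0.34) and Asah1 (0.30) were higher. In bulk RNA, fewer cells of a type and less of a transcript per cell cannot be told apart.

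The genes named next were chosen for the size of their change among genes past the threshold. Fcnaos, an antisense gene at the ficolin A locus, had 2.54, 1.87, 5.11, 1.73 and 1.91 CPM in WT 1, WT 2, WT 3, WT 5 and Fpr2KO 2, and 9.75, 11.4, 4.54, 22.5 and 20.03 CPM in WT 4 and Fpr2KO 1, 3, 4 and 5. WT 3 exceeded Fpr2KO 3, so the sets overlapped, and the log2 fold change was -2.38 ± 0.48 (SE; adjusted p = 0.0264 in edgeR); the strand setting of the counting is not given, so reads of the partner gene may be included. Fpr2KO 4 and Fpr2KO 5 had 0.251% and 0.201% of their nuclear counts in antisense genes, against 0.112% to 0.148% in the other libraries. They also had reads in 22808 and 22708 genes, against 21316 to 21866. The part of these traits in the changes named here was not tested. Cntd1 (-1.75), Grtp1 (-1.53), Sla2 (-1.20) and Tlcd1 (-1.16) were highest in Fpr2KO 4, followed by Fpr2KO 5 except for Tlcd1, which stood at 93.9 CPM in Fpr2KO 4, 53.6 in Fpr2KO 1 and 53.0 in Fpr2KO 5. Of the 31-base sequences of Cntd1, 66.6% occur in other genes. In the other direction, Rnf17 (1.36), a germ cell gene, the metalloreductase gene Steap4 (1.29), the stefin gene Stfa2l1 (1.16), the retinol dehydrogenase gene Dhrs9 (1.08) and the sphingomyelin synthase gene Sgms2 (0.97) were called higher. For Rnf17 and Steap4 all WT libraries, WT 4 included, lay above all Fpr2KO libraries, so that these 2 genes were ordered by genotype.

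Markers of other cell types mostly did not follow the split. Over all genes tested, 9.52% were called, and the counts below stand beside that share. Erythroid markers had a median log2 fold change of -0.92 between the sets with none of 19 called (-1.55 without Fpr2KO 2), but their level put all WT libraries (-2.54 to 0.14, lowest in WT 3) below all Fpr2KO libraries (0.26 to 1.34), and with genotype in the model the split median was -0.25 and the genotype median 1.40. Neutrophil markers (median 0.44, 1 of 16 called), classical monocyte markers (0.57, and 0.35 without WT 5; 1 of 10) and basophil and mast cell markers (0.35, and 0.07 without WT 2; none of 10) also separated the genotypes, and their split medians with genotype in the model were 0.07, 0.05 and 0.10. Cell cycle genes had a median of -0.24 (-0.16 without WT 3) and 3 of 32 called, and a split median of -0.02 with genotype in the model. The level of B cell markers overlapped between the sets (-0.42 to 0.16 in the high and -0.13 to 0.31 in the low set). The part of these cell types in the differences between the sets was not tested.

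The genes on the 2 sides of the split differed in transcript length and base composition. Both were taken from the longest annotated transcript of each gene, which need not be the one expressed. The rule named neither property, but whether they also bear on the mitochondrial share that made the sets was not tested. Genes called higher in the high set had a median transcript length of 5538 bases and a GC content of 43.7%, and genes called lower had 2061 bases and 54.8%, where all genes tested had 3097 bases and 49.4%. The genes tested were put into 5 bins of equal size. In the bin richest in GC, 13.1% were called lower and 0.103% higher, and in the poorest bin 0.65% were called lower and 9.99% higher. The median log2 fold change ran from 0.16 in the poorest to -0.18 in the richest bin, and from -0.13 in the shortest to 0.12 in the longest bin.

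The libraries did not all take part alike. The median level of the richest minus the poorest GC bin was -0.44 in Fpr2KO 2, -0.24 in WT 2, -0.22 in WT 1 and -0.10 in WT 5, but 0.14 in WT 3, where the low libraries had 0.06 to 0.25. WT 3 thus had a high mitochondrial share and a composition like that of the low set. For the shortest minus the longest bin, WT 3 stood at 0.01 and Fpr2KO 3 at 0.01, between the other high libraries (-0.16 to -0.14) and the other low ones (0.06 to 0.28).

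**Figure D4:**
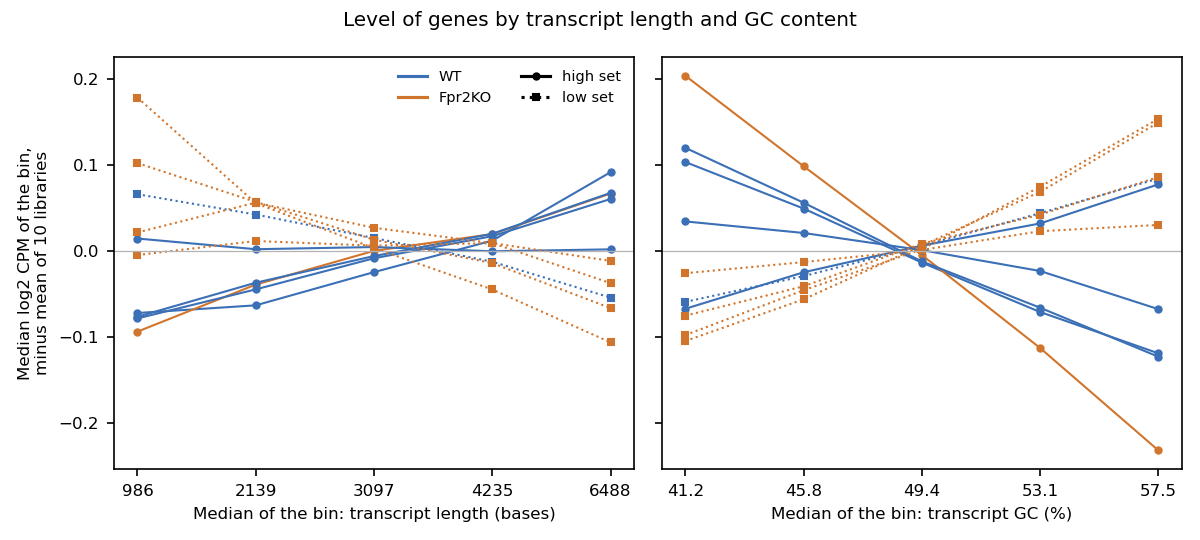
Median log2 CPM of genes in each of 5 bins of transcript length (left) and GC content (right), minus the mean of the 10 libraries, 1 line per library; blue is WT, orange is Fpr2KO, solid lines with circles are the high set and dotted lines with squares the low set. Lines of the 2 sets slope in opposite directions, except that WT 3 follows the low set in GC content (0.14 for the richest minus the poorest bin) and that WT 3 and Fpr2KO 3 are nearly flat in length (0.01 each). Length and GC content are those of the longest annotated transcript of each gene.

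A fit that took out each library's trend with GC content and length, added after seeing the data, left 205 of 14607 genes called (1.4%), 39 higher (0.267%) and 166 lower (1.14%). Complex I then had 7 of 36 called lower with a median of -0.17, complexes II to V 5 of 38 (-0.14), the mitochondrial ribosome 6 of 52 (-0.15), import 5 of 27 (-0.15) and the cytosolic ribosome 14 of 79 (-0.13), where the median over all genes was -0.01. Ndufb3 (-1.05), Tomm7 (-1.09), Cox8a (-0.41), Rps10 (-0.41), Marco (-0.78), Ltb (-0.32) and Cpeb2 (0.43) passed the threshold in this fit too. Of the values of named genes compared, 33 kept their call or its absence, 61 lost the call and 1 reversed. Steap4 (adjusted p = 0.054), Stfa2l1 (0.0632), Vsig4 (0.0738) and Fcnaos (0.0523) were among those that lost it in edgeR, and no gene of the MHC class II, NF-kB, apoptosis or lysosome lists was called. RNA splicing genes lost their shift: the median went from 0.15 to -0.01, none was called higher and 2 were called lower, and Sf3b1 had 0.09 with an adjusted p of 0.37 in edgeR. Tug1, a nuclear long RNA called higher without the offset (0.26), had -0.03 with it.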

How the data were processed

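The authors deposited raw read counts per gene, without normalisation; HTSeq 0.10.0, FastQC 0.10.1, mm10 and GRCm38 are named per the submitters' processing notes. The aligner, strand setting and annotation release were not given in the sources used here. GENCODE M21 (GRCm38) named 52133 of 55414 identifiers; the rest held 0.0564% to 0.135% of counts. Genes with symbols starting mt- were removed before library sizes, filterByExpr (14653 genes left) and TMM scaling. edgeR 4.0.16 (R 4.3.3) quasi-likelihood fits with robust=TRUE compared the sets alone, with genotype and with their interaction (no call; smallest FDR 0.966; 602 genes at an unadjusted p under 0.05; no other tool was run), two-sided, at an FDR of 0.05. The SE is the fold change over the square root of F, and list levels used log2 CPM with a prior count of 2.

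The members and the 41 lists were chosen with earlier results of these data known. Named genes are the 12 largest changes per direction past the FDR with a mean of at least 1 log2 CPM, the 5 smallest p-values per direction with genotype in the model, up to 4 per list by p, and Fpr2 as a check; Adgre1, Spic and the nuclear copies were picked after their values were seen. Alternatives were RLE and upper quartile scaling, other filters, DESeq2 1.42.0, limma 3.58.1 voom, the share as a covariate, a boundary of 4.5%, a replicate block, leaving out each library and, added after seeing the data, offsets for GC content and length (splines with 5 degrees of freedom). Replicate pairs differed by 12.4 to 68.2 chi-square per degree of freedom, so none was the same library sequenced again. This does not tell separate animals from separate preparations of the same cells. The fits were tested on simulated data.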

Additional observations from a re-analysis of the deposited data

Results flagged for a closer look

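Within a set of 5 libraries, a library was listed when its gap to the nearest other exceeded the 95% critical value of Dixon's test. This held for 17 of 278 groups of values examined, where chance gives 13.9. WT 3 stood apart in the high set for the level of complex I (0.0131 on the log2 scale), for the median of the shortest minus the longest of 5 gene bins (0.0126), and for Bax (61.7 CPM), Fis1 (81.2), Fcnaos (5.11), Etohd2 (2.93) and Vsig4 (11.0), the highest value in each. WT 1 was apart in the high set for Cpeb2 (53.8 CPM), Sycp2 (5.29) and the eosinophil marker level (-0.367). Fpr2KO 2 was apart for Cdk5rap1, a mitochondrial tRNA-modifying enzyme (19.7 CPM, the highest of the high set), and Ms4a8a (7.69, the lowest). In the low set Fpr2KO 4 was apart for Cd79a (705 CPM) and Kif23 (40.3), Fpr2KO 3 for Etohd2 (2.18) and the MHC class II level (0.0604), and Fpr2KO 1 for the level of the integrated stress response (0.289).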

How the results depend on the processing

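The number of genes past an FDR of 0.05 between the sets (1395) became 2361 in DESeq2, 0 with the boundary at 4.5% (2996 at an unadjusted p under 0.05), 296, 683 and 205 with offsets for GC content, length and both, and ran from 0 to 2452 with 1 library left out. With genotype in the model (0) it became 408 with no filter on low counts, 994 in DESeq2, 1116 with the share as a covariate and 1 with both offsets, and ran from 0 to 1085 with 1 library left out. Upper quartile scaling gave 374 higher and 1164 lower genes, against 577 and 818. Replicate numbers paired only some libraries: same-numbered ones correlated between -0.238 and 0.289. WT 2 and Fpr2KO 2 (0.289) correlated best with each other, as did WT 4 and Fpr2KO 4 (0.25). Each of these pairs lay within the same set, high for the first and low for the second. With the replicate block the comparison of the sets gave 0 calls (1479 at an unadjusted p under 0.05) and that of the genotypes 59, against 10. In the blocked fit the comparison of the sets rests on replicates 1, 3 and 5 only. In each of these the WT library is high and the Fpr2KO library low, so split and genotype cannot be told apart there. Whether same-numbered libraries shared a batch is not given and was not tested. Of 2185 values of named genes under an alternative, 1351 kept direction and side of the threshold, 827 lost the call, 6 gained one and 1 reversed: Tug1, at -0.0319 with both offsets. Of 902 list medians 872 moved by less than the spread and 30 by more, among them RNA splicing, at -0.011 with both offsets. The causes of these changes were not tested.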
